A study of Mus musculus with 6 samples.

Results

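The replication-dependent histone genes were described here in cultured mouse myoblasts. They were taken as every protein-coding gene of the count table whose older symbol begins with Hist1h, Hist2h, Hist3h or Hist4h, which gave 67 of 54532 genes: 6 for the linker histone H1, 18 for H2A, 18 for H2B, 12 for H3 and 13 for H4. The study asked whether the translation factor eIF5A acts in muscle satellite cells (SCs) on protein synthesis in general or on selected mRNAs, and the RNA-seq compared transcript levels in 3 WT and 3 eIF5A-KO libraries. The eIF5A-KO myoblasts came from tamoxifen-treated Pax7-CreERT2/+;eIF5A f/f mice, in which Cre is driven from the Pax7 locus and so acts in SCs and the cells made from them, and the WT myoblasts came from littermates. The study describes its WT controls in one place as Pax7-CreERT2/+ mice and in another as Pax7+/+;eIF5A f/f mice, and which alleles the littermates of these libraries carried is not given in the sources used here. Hind limb muscle of mice aged 3 weeks was digested, the cells were grown in medium with serum and fibroblast growth factor, and RNA was taken on day 2 of culture. The labels do not say whether the 3 libraries of a genotype came from separate animals, so p-values measure the spread between these libraries, which may be technical.

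The libraries held 16281216 to 17734551 counts, with 2.11 to 5.75% of them on mitochondrial genes, the highest share being in WT replicate 1. The transcript of the targeted gene did not separate the genotypes in these libraries. The study itself assessed the knockout in SCs by real-time RT-PCR, immunostaining and a western blot, which were not examined here. Eif5a stood at 1603, 986 and 1238 CPM (read counts divided by the TMM-scaled library size) in WT and at 1364, 1459 and 1059 in eIF5A-KO, a log2 fold change of 0.02 (95% confidence interval −0.51 to 0.55; edgeR adjusted p = 0.993), so the groups are called libraries labelled WT and eIF5A-KO. All 7 myoblast markers were detected, and so were all markers of fibroblasts (6), endothelial cells (5), macrophages (5) and mural cells (5), with no marker at 0 in all libraries. The summed level of the myoblast markers ranged from 602 to 1408 CPM in WT and from 457 to 948 CPM in eIF5A-KO, and that of the endothelial markers from 872 to 1953 and from 1609 to 2502. The fibroblast markers summed to between 2070 and 2681 CPM in WT and between 2140 and 2876 in eIF5A-KO, the macrophage markers to between 22.6 and 44.1 and between 29.4 and 70.5, and the mural markers to between 132 and 166 and between 166 and 257. At an unadjusted p under 0.05, which 4.02% of all tested genes passed as lower and 2.74% as higher, 3 myoblast markers were lower, and 2 fibroblast, 1 endothelial, 1 macrophage and 3 mural markers were higher in eIF5A-KO. One of the mural markers, Myh11 of smooth muscle, was among the few genes that passed the adjusted threshold (log2 fold change 1.52, edgeR adjusted p = 0.0486). Its eIF5A-KO libraries, at 29.2, 28.3 and 34.2 CPM, were all above the WT libraries. The part of cell composition in the results below was not tested.

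Histones package DNA into nucleosomes: H2A, H2B, H3 and H4 form the core and H1 binds the linker DNA. Most copies of these genes lie in clusters and are transcribed in S phase, when new chromatin is made. Their mRNAs differ from other mRNAs in that they have no introns and normally end in a conserved stem-loop instead of a poly(A) tail, and the stem-loop binding protein SLBP holds the stem-loop for 3′ end processing, translation and decay. Some of these genes also give polyadenylated transcripts that run past the stem-loop, above all in cells that have left the cycle. Separate genes outside S phase control encode variants such as H1f0, H3f3a, H3f3b and H2afz, whose mRNAs are polyadenylated. Whether polyadenylated RNA was selected for these libraries is not given in the sources used here, and since the libraries are of bulk cells, fewer cells that express a gene and less RNA per cell cannot be told apart.

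The stem-loop is shown first, because it divides the genes by transcript end. The sense strand of every transcript was searched for GG with any 2 bases after it, then CTTTT with any base after it, then AG with any 2 bases after it, then CC, in which the first 6 bases pair with the last 6 around a loop of 4. This stem-loop was found in the transcripts of 44 of the 67 genes and of 5 of the 21834 other protein-coding genes (0.0229%). The sites below were read from the GENCODE M21 transcripts (GRCm38, the build called mm10), 5′ to 3′ on the strand of the gene, with the stem-loop in capitals and 5 flanking bases on each side in lower case; the first 4 belong to genes whose libraries did not overlap between the genotypes.
Hist1h1c: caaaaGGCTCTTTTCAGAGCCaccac
Hist1h1d: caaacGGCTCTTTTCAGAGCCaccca
Hist1h1e: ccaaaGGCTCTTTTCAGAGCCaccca
Hist2h3c2: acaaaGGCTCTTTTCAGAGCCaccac
Hist1h3c: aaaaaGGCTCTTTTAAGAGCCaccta
Hist1h4i: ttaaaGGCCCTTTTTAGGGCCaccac
Hist1h4d: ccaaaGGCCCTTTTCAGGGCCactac
Hist1h4j: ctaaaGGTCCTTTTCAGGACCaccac

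The capitals lie at chr13:23739512-23739527 (plus strand) for Hist1h1c, at chr13:23555787-23555802 (plus) for Hist1h1d, at chr13:23621782-23621797 (minus) for Hist1h1e and at chr3:96238485-96238500 (minus) for Hist2h3c2. Those of Hist1h3c are at chr13:23745047-23745062 (minus), of Hist1h4i at chr13:22040966-22040981 (minus), of Hist1h4d at chr13:23581950-23581965 (plus) and of Hist1h4j at chr13:21735437-21735452 (plus). All of them lie in the 3′ UTR. The form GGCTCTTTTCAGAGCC was the commonest, with 26 genes, followed by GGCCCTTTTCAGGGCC with 7 and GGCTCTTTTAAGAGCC with 6. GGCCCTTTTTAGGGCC and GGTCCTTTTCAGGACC were each found in 2 genes and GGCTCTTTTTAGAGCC in 1. The stem-loop began 22 to 59 bases after the stop codon (median 32).

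What differed between the genes was how far the annotated transcript ran on. In 22 genes it ended within 74 bases of the stem-loop, and in 22 genes it went on for 151 to 4884 bases; a limit of 100 bases, set after these lengths were seen, separated them. Of the 23 genes without a match, 8 had an annotated 3′ UTR of at least 30 bases, among them Hist1h2bc and Hist2h2be, and 15 had a shorter one or none. The genes with a long extension held 77.5% of all counts on the 67 genes, and the genes whose transcripts ended at the stem-loop held 3.21%. The 8 genes with a UTR and no match held 18.2%, and the last 15 held 1.07%. The counts thus lay mostly on genes whose annotated transcripts do not end at the stem-loop. Even so, the median level per length was similar: 0.326 FPKM (fragments normalised to gene length and library size, the authors' values, mean of 6 libraries) with an extension and 0.286 FPKM without. The median number of counts over the 6 libraries was 53 with an extension and 14 without, and the genes with an extension other than Hist1h1c held 13.0% of the counts.

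**Figure D1:**
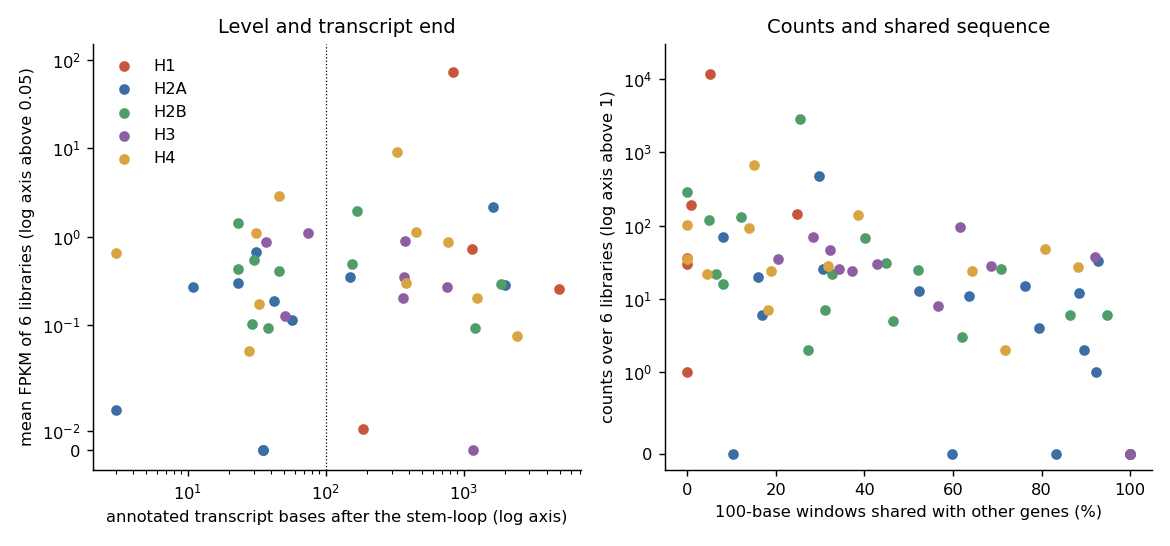
Left, mean FPKM of the 6 libraries (log axis above 0.05) against annotated transcript bases after the stem-loop (log axis) for the 44 genes with a stem-loop, coloured by histone class; the dotted line marks 100 bases. Right, total counts over the 6 libraries (log axis above 1) against the share of a gene's 100-base transcript windows that another gene's transcript also holds, for all 67 genes. Hist1h1c is the H1 gene at the top of both panels, and the 5 genes with all windows shared sit at 0 counts.

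Replication-dependent histone transcripts were scarce in these libraries. The 67 genes together took 2231, 1962 and 1710 counts in WT and 5513, 3563 and 2997 in eIF5A-KO, which is 0.0134, 0.0111 and 0.0105% of each WT library and 0.0328, 0.0203 and 0.0176% of each eIF5A-KO library. Between 47 and 52 of them had at least 1 count in a library. The single gene Hist1h1c, which encodes the H1 subtype H1.2, took 51.4 to 61.1% of the histone counts in WT and 64.1 to 72.0% in eIF5A-KO. With Hist1h2bc it was far above the rest: at 73.0 and 24.4 FPKM (mean of 6 libraries) they were followed by Hist1h4i at 9.08, Hist1h4h at 2.89, Hist3h2a at 2.18 and Hist3h2ba at 1.93 FPKM. In WT, Hist1h1c at 41.9 ± 9.73 FPKM (SD, n = 3) and Hist1h2bc at 17.7 ± 2.13 did not overlap, nor did Hist1h2bc and Hist1h4i at 8.24 ± 3.61. Hist1h4i in turn was above all the remaining histone genes in every WT library, whereas Hist1h4h at 2.09 ± 0.576, Hist3h2a at 2.20 ± 0.682 and Hist3h2ba at 1.58 ± 0.200 FPKM overlapped.

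Sequence shared with another gene limits what can be counted, either because a near copy lies elsewhere or because another annotated gene covers the same bases on either strand. Across the 67 genes, 28 had more than 50% of their 100-base transcript windows in common with another gene, and the median shared share was 52.4% for genes too low to test and 14.6% for the tested ones. Hist2h2bb, Hist2h2aa1, Hist2h2aa2, Hist2h3c1 and Hist2h3b shared all of their windows and had 0 counts in all libraries. All 5 of them overlap exons of other annotated genes, so the shared windows need not be copies elsewhere. Hist1h2aa, Hist1h2an and Hist2h2ab also had 0 counts and also overlap an exon of another gene. A count of 0 allows up to 0.194 CPM of counted reads in the library where 3 counts are worth most, but reads of these 8 genes may have been left uncounted or given to another gene, so it sets no limit on their transcripts. Another 14 genes had 1 to 9 counts over the 6 libraries, among them Hist1h1t and Hist1h2ba, which encode testis histones, with 1 and 2 counts.

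A filter on low counts (edgeR's filterByExpr, at least 0.590 CPM in 3 libraries) left 16 of the 67 genes for testing: 3 for H1, 2 for H2A, 5 for H2B, 2 for H3 and 4 for H4. For 9 of them all WT libraries reached that level, 3 (Hist1h1d, Hist1h2be and Hist2h3c2) reached it in all libraries of eIF5A-KO but not of WT, and 4 reached it in part of both groups. Such a filter can favour genes that are higher in one group, so the counts below describe these 16 genes and not the family.

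The 2 most abundant transcripts of the replication-dependent genes, those of Hist1h1c and Hist1h2bc, were higher in the libraries labelled eIF5A-KO at the unadjusted threshold. So were 3 much scarcer ones, and none of the tested ones was lower. Of the 16 tested genes 5 were higher at an unadjusted p under 0.05 (edgeR quasi-likelihood test), compared with 2.74% of the 14679 genes tested, and 0 were lower, compared with 4.02%. Those 5 were Hist1h1c, Hist1h1d and Hist1h1e for linker histones, Hist1h2bc for H2B and Hist2h3c2 for H3. None passed the adjusted threshold of 0.05 (0.0204% of all genes did), so no single histone gene was called changed in this fit. With the fold over 2 and unadjusted p under 0.05 that the study used, 4 genes were higher (0.531% of all genes) and 0 lower (1.32%). Leaving out single libraries, the count at an unadjusted p under 0.05 ranged from 3 to 7 and the count with the fold from 1 to 6, both lowest without eIF5A-KO replicate 1. The 5 genes were also those whose 3 eIF5A-KO libraries all lay above the 3 WT libraries (5.68% of all genes), and 0 of the 16 lay below (6.83%). The log2 fold change was above 0 for 13 of the 16 (48.3% of all genes), with a median of 0.50 beside −0.01 over all genes. Hist1h1d and Hist2h3c2 are among the genes that reached the filter level in all libraries of eIF5A-KO but not of WT. Without such genes, in a count added after seeing the data, 3 of 13 histone genes were higher at an unadjusted p under 0.05 (2.5% of 14368 genes), 2 of them by more than 2 times (0.264%), and the libraries of 3 did not overlap (5.34%). Without a filter, 59 histone genes could be fitted, and 6 of them were higher at an unadjusted p under 0.05 (2.51% of all genes in that fit) and 0 lower.

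**Figure D2:**
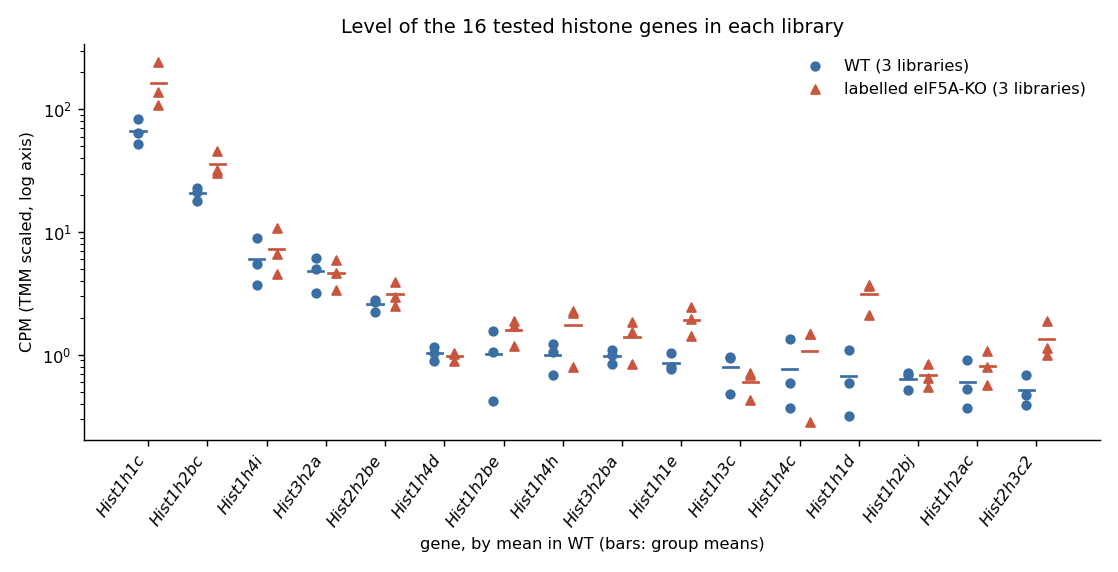
CPM (TMM scaled, log axis) of the 16 tested histone genes in each library, ordered by mean in WT. Circles are the 3 WT libraries, triangles the 3 libraries labelled eIF5A-KO and bars group means; for Hist1h1c, Hist1h2bc, Hist1h1e, Hist1h1d and Hist2h3c2 every triangle lies above every circle.

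All 3 tested replication-dependent linker histone genes were among the 5 (2.74% of all genes). Of these, Hist1h1d reached the filter level in all libraries of eIF5A-KO but not of WT. Hist1h1c (chr13:23738808-23740367, plus strand, 1 exon) was at 82.9, 63.6 and 51.9 CPM in WT and at 243, 139 and 109 CPM in eIF5A-KO. The groups did not overlap, and eIF5A-KO replicate 1 was well above replicates 2 and 3. The log2 fold change was 1.31 (95% interval 0.62 to 1.99; unadjusted p = 0.00186, edgeR adjusted p = 0.368). Without eIF5A-KO replicate 1 it was 0.92, with an unadjusted p of 0.00588. Only 5.07% of its 100-base windows were shared with another gene.

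Hist1h1d (chr13:23553262-23560686, plus strand, 1 exon), which encodes H1.3, was at 1.10, 0.318 and 0.591 CPM in WT, which is 17, 6 and 10 counts. In eIF5A-KO it was at 3.61, 3.73 and 2.10 CPM, or 59, 63 and 37 counts. All eIF5A-KO libraries were above all WT libraries, and the log2 fold change of 2.24 was the largest of the 16 genes (interval 1.17 to 3.32; unadjusted p = 0.000959, edgeR adjusted p = 0.343). Its annotated transcript runs for 4884 bases past the stem-loop, the longest extension of the family.

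Hist1h1e (chr13:23620629-23622558, minus strand), which encodes H1.4, was at 1.03, 0.795 and 0.768 CPM in WT and at 2.45, 1.95 and 1.42 in eIF5A-KO. The groups did not overlap and the log2 fold change was 1.16 (interval 0.33 to 1.99; unadjusted p = 0.0113, edgeR adjusted p = 0.519). Without eIF5A-KO replicate 1 its unadjusted p was 0.0507. Exons of Hist1h2be and of Gm11398, which lie on the same strand, overlap Hist1h1e, so reads in the overlap could belong to any of them.

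The other 3 linker genes were below the filter. Hist1h1a (H1.1) had 4, 3 and 2 counts in WT and 8, 8 and 5 in eIF5A-KO, without overlap in CPM. Hist1h1b (H1.5) had 3, 7 and 2 counts and 10, 11 and 3, with overlap. The 6 replication-dependent H1 genes summed to 85.4, 65.2 and 53.5 CPM in WT and to 250, 146 and 113 in eIF5A-KO, a ratio of the means of 2.49. The ratio was 3.09 for the sum without Hist1h1c, from 2.59, 1.64 and 1.59 CPM to 7.22, 6.81 and 3.97, without overlap. That sum rests on 40, 31 and 27 counts in WT and 118, 115 and 70 in eIF5A-KO, mostly of Hist1h1d and Hist1h1e. With the limits given for these genes, it does not settle whether H1 genes beyond Hist1h1c were higher.

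The promoters of the H1 genes are shown because these 3 genes were higher at the unadjusted threshold. Promoters of this kind are known for an AAACACA element called the H1 box and for a CCAAT box. The RefSeq windows below (GRCm38.p6, 250 bases before to 50 after the start, 5′ to 3′ on the strand of the gene) have these letters, and the TATA box TATAAA, in capitals, on either strand.
Hist1h1c: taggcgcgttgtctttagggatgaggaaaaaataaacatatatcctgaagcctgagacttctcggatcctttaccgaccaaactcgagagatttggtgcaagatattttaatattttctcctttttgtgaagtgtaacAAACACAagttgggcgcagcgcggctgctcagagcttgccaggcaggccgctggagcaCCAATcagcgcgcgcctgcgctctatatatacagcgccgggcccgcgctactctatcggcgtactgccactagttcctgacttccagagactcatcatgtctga
Hist1h1d: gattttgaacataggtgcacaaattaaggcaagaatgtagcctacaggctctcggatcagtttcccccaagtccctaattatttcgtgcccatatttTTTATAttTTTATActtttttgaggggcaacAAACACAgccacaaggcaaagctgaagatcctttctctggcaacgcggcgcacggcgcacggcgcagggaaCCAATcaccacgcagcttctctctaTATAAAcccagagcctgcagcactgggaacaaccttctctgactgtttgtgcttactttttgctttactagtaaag
Hist1h1e: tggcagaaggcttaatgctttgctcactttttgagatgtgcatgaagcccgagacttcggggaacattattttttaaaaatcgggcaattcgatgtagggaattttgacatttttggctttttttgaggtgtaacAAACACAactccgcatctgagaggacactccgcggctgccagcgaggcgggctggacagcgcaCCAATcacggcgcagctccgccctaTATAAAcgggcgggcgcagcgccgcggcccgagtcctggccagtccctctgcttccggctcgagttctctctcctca

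These windows are chr13:23738557-23738856 for Hist1h1c, chr13:23554782-23555081 for Hist1h1d and chr13:23622509-23622808 for Hist1h1e. For Hist1h1d the RefSeq start lies inside the annotated exon, which begins upstream of the whole window, at position 23553262. In all of them the H1 box came first and the CCAAT box nearer to the start. The H1 box was in 5 of the 6 H1 windows, in 2 of 17 H2A windows, in 2 of 17 H2B windows and in 0 of 10 H3 and 0 of 12 H4 windows, while 7.18% of all 32851 RefSeq promoters of this length hold these letters. CCAAT was in every H1, H2A, H2B and H3 window and in 3 of the 12 H4 windows (37.4% of all promoters). TATAAA was in 35 of the 62 windows (13.6%). The octamer ATTTGCAT, known from H2B promoters, was in 7 H2A and 7 H2B windows and in none of the others (1.74%); H2A and H2B genes often start back to back and then share much of a window. The 62 windows covered 61 of the 67 genes. A match describes the sequence and says nothing of binding in these cells.

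For the core histones the picture was mixed. Hist1h2bc (chr13:23684199-23692908, plus strand, 2 exons) held most of the H2B counts. It was at 23.1, 18.0 and 21.0 CPM in WT and at 45.8, 32.3 and 30.6 in eIF5A-KO, with no overlap. Its log2 fold change was 0.81 (interval 0.33 to 1.28; unadjusted p = 0.0037, edgeR adjusted p = 0.398). Its annotated transcript is spliced, has a 3′ UTR of 743 bases and holds no stem-loop, and 25.4% of its 100-base windows were shared with another gene.

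Hist1h2ac, an H2A gene, starts next to Hist1h2bc on the opposite strand, with the gene bodies pointing away from each other. Its RefSeq window, chr13:23683910-23684209 on the minus strand, covers the stretch between them and holds CCAAT on both strands, the octamer on the reverse strand and TATAAA, here in capitals.
Hist1h2ac: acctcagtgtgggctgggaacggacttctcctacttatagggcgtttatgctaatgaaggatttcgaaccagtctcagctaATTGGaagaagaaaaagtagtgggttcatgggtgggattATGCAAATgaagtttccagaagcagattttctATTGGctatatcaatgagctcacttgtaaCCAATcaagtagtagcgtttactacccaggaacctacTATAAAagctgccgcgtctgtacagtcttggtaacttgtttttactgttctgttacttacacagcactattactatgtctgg

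Hist1h2ac was far less abundant than its neighbour, at 0.905, 0.371 and 0.532 CPM in WT and at 0.795, 1.07 and 0.567 in eIF5A-KO. The groups overlapped and the log2 fold change was 0.44 (interval −0.65 to 1.53; unadjusted p = 0.384, edgeR adjusted p = 0.936). This interval includes the value of Hist1h2bc, so the pair is not shown to differ.

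The other 4 tested H2B genes overlapped between the genotypes. Hist3h2ba was at 1.10, 0.849 and 1.00 CPM in WT and at 1.84, 1.54 and 0.850 in eIF5A-KO, a log2 fold change of 0.52 (interval −0.39 to 1.42). Hist1h2bj had a log2 fold change of 0.10 (interval −0.84 to 1.03). For Hist2h2be it was 0.28 and for Hist1h2be 0.67, with unadjusted p-values of 0.374 and 0.191. All H2B genes together stood at 31.6, 23.4 and 27.5 CPM in WT and 55.7, 41.0 and 37.8 CPM in eIF5A-KO, a ratio of 1.63 without overlap. Most of this sum was Hist1h2bc, so it does not describe the H2B genes as a class.

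The summed level of the H2A genes did not separate the genotypes. Hist3h2a, which overlaps exons of Trim17 on the annotation, was the most abundant of them, at 6.14, 3.18 and 5.02 CPM in WT and at 5.93, 3.37 and 4.65 in eIF5A-KO. The libraries of the genotypes interleaved and the log2 fold change was −0.04 (interval −0.77 to 0.70; unadjusted p = 0.915). The 18 H2A genes summed to 8.85, 4.88 and 6.91 CPM and to 8.01, 6.04 and 6.29 CPM, a ratio of 0.99.

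Among the H3 genes Hist2h3c2 (chr3:96238108-96239127, minus strand) was at 0.388, 0.689 and 0.472 CPM in WT and at 1.90, 1.01 and 1.13 in eIF5A-KO, or 6, 13 and 8 counts against 31, 17 and 20. The groups did not overlap, with a log2 fold change of 1.35 (interval 0.36 to 2.35; unadjusted p = 0.0126, edgeR adjusted p = 0.539). Without eIF5A-KO replicate 1 the unadjusted p was 0.0645. It shares 61.6% of its windows with other genes, so its count is uncertain. The H3 genes Hist2h3c1 and Hist2h3b of the same cluster, which shared all of their windows, had 0 counts. Hist1h3c went the other way in value, at 0.969, 0.477 and 0.945 CPM in WT and at 0.428, 0.710 and 0.680 in eIF5A-KO, with overlap (log2 fold change −0.38, interval −1.41 to 0.66). The H3 genes summed to 3.43, 2.49 and 3.07 CPM in WT and to 5.51, 5.03 and 4.19 in eIF5A-KO, a ratio of 1.64 without overlap.

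No H4 gene was separated. Hist1h4i, the most abundant, was at 8.98, 3.71 and 5.49 CPM in WT and 10.7, 6.57 and 4.53 CPM in eIF5A-KO (log2 fold change 0.27, interval −0.63 to 1.16). Hist1h4h was at 1.23, 0.689 and 1.06 CPM in WT and at 2.26, 2.19 and 0.794 in eIF5A-KO: replicates 1 and 2 of eIF5A-KO were above all WT libraries and replicate 3 was not. Its log2 fold change was 0.82 (interval −0.25 to 1.88; unadjusted p = 0.115), and without eIF5A-KO replicate 3 it was 1.17, with an unadjusted p of 0.0213. Hist1h4c (0.49) and Hist1h4d (−0.07) had intervals that spanned 0. The sum over the 13 H4 genes was 14.9, 8.01 and 9.98 CPM in WT and 18.0, 12.9 and 8.84 in eIF5A-KO, a ratio of 1.21 with overlap. The difference between the classes was not tested.

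**Figure D3:**
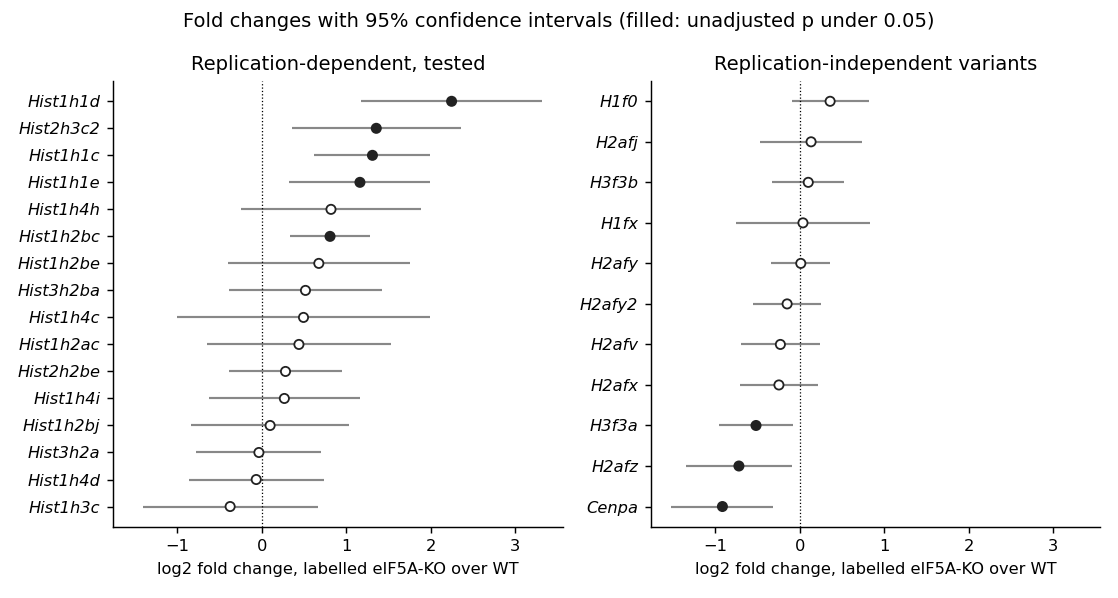
Log2 fold change, eIF5A-KO over WT, with its 95% confidence interval for the 16 tested replication-dependent genes (left) and 11 replication-independent variants (right); filled points have an unadjusted p under 0.05. The filled points lie above 0 on the left (5 genes) and below 0 on the right (Cenpa, H2afz and H3f3a).

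Taking all 67 genes, the summed level was 144, 104 and 101 CPM in WT (116 ± 24.1, SD, n = 3) and 337, 211 and 170 CPM in eIF5A-KO (239 ± 87.2), a ratio of 2.06 without overlap. Much of it was Hist1h1c: the other 66 genes gave 61.3, 40.5 and 49.1 CPM and 94.4, 71.8 and 61.1 CPM, a ratio of 1.51, and eIF5A-KO replicate 3 then lay just below WT replicate 1. Leaving out Hist1h2bc as well, the ratio was 1.34 with overlap. The 51 genes below the filter summed to 9.18, 6.47 and 6.20 CPM in WT and to 9.85, 9.65 and 7.94 CPM in eIF5A-KO, a ratio of 1.26 with overlap. Among those 51, the libraries of eIF5A-KO lay above those of WT for 5 genes and below for 0. All 5 were among the 29 with at least 10 counts in all, and of the 4218 genes below the filter with as many counts 3.7% lay above and 7.56% below. Besides Hist1h1a these were Hist1h3d with 0, 6 and 0 counts in WT and 17, 6 and 6 in eIF5A-KO, Hist1h2bg with 4, 5 and 2 and 8, 6 and 6, Hist1h3e with 3, 1 and 4 and 5, 11 and 6, and Hist1h3i with 4, 3 and 1 and 6, 5 and 9. At so few counts a single gene is not resolved.

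By position, the Hist1 cluster on chromosome 13 (54 genes between chr13:21715763-23934851) had a ratio of summed CPM of 2.13 and held 12 of the 16 tested genes and 4 of the 5 (2.74% of all genes). Leaving out Hist1h1d and Hist1h2be, which reached the filter level in all libraries of eIF5A-KO but not of WT, 3 of its 10 tested genes were higher (2.5% of all genes so chosen). Without Hist1h1c the ratio of the cluster was 1.58 without overlap, from 50.3, 33.0 and 39.3 CPM in WT to 80.3, 62.2 and 51.1 in eIF5A-KO. Hist1h2bc gave 23.1, 18.0 and 21.0 CPM of this in WT and 45.8, 32.3 and 30.6 in eIF5A-KO, so the separation is not shown to extend across the cluster. The Hist2 cluster on chromosome 3 (10 genes, chr3:96219865-96270132) had a ratio of 1.46 and the Hist3 pair on chromosome 11 (chr11:58948920-58956830) one of 1.05 with overlap. By transcript end, the genes with an extension past the stem-loop summed to 109, 77.6 and 70.0 CPM in WT and to 277, 165 and 129 in eIF5A-KO, a ratio of 2.23. Most of this was Hist1h1c: the other 21 genes with an extension summed to 25.8, 14.1 and 18.1 CPM and to 34.6, 26.1 and 20.5 CPM, a ratio of 1.40 with overlap. The genes whose transcripts end at the stem-loop summed to 6.85, 3.87 and 5.14 CPM and to 6.67, 6.69 and 5.05 CPM, a ratio of 1.16 with overlap. None of the 3 tested genes of the second kind (Hist1h4h, Hist1h3c and Hist1h2bj) was among the 5, while 4 of the 11 tested genes with an extension and 1 of the 2 tested genes with a UTR and no stem-loop were (2.74% of all genes). Leaving out the genes that reached the filter level in all libraries of eIF5A-KO but not of WT, 2 of 8 tested genes with an extension were (2.5% of all genes so chosen). With 3 tested genes on one side the difference between the kinds was not tested.

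**Figure D4:**
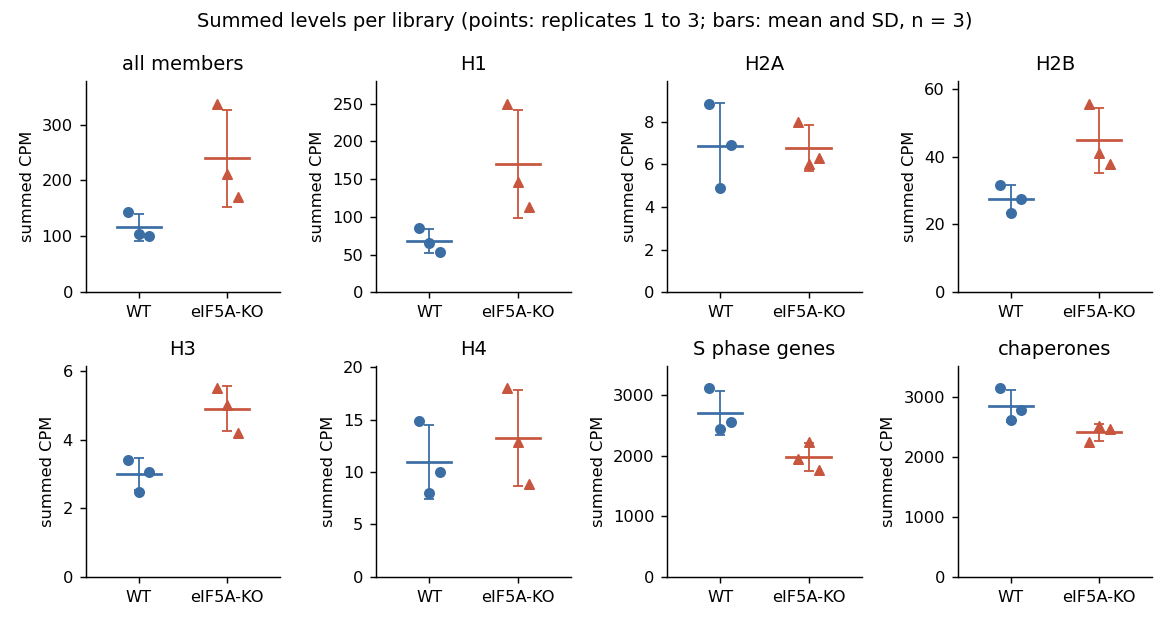
Summed CPM per library (axes from 0) over all 67 histone genes, over each class, over 25 S phase genes and over 20 histone chaperones and importers. Points are libraries in the order of replicates 1 to 3, horizontal bars group means and error bars SD (n = 3); the groups do not overlap for all members, H1, H2B and H3, where eIF5A-KO is higher, or for S phase genes and chaperones, where it is lower.

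Genes that normally accompany histone synthesis, and the replication-independent variants, were measured beside them. In none of these 4 lists was the summed level of every eIF5A-KO library above that of every WT library. Of 25 genes of S phase and its onset, 12 were lower and 0 higher at an unadjusted p under 0.05 (4.02 and 2.74% of all genes), and 0 passed the adjusted threshold. A log2 fold change above 0 was found for 1 of the 25 (48.3% of all genes), with a median of −0.45. They summed to 3110, 2434 and 2556 CPM in WT and to 1941, 2227 and 1759 CPM in eIF5A-KO, so that every eIF5A-KO library was below every WT library. Uhrf1, which brings DNA methylation to new DNA, was at 122, 125 and 129 CPM in WT and 76.5, 87.2 and 64.7 CPM in eIF5A-KO (log2 fold change −0.72; unadjusted p = 0.00197, edgeR adjusted p = 0.379). Ccna2 (cyclin A) and Mcm6, a subunit of the replicative helicase, had log2 fold changes of −0.86 and −0.65. Mcm3, another helicase subunit, was at −0.32 with an unadjusted p of 0.0567. Pcna, the sliding clamp, and Rrm2, a subunit of ribonucleotide reductase, had values of −0.50 and −0.37 with unadjusted p-values of 0.0669 and 0.0752. For Pcna the value was −0.20 without WT replicate 1 (unadjusted p = 0.281) and −0.68 without WT replicate 2 (0.0106). Over 16 alternative fits, Mcm3 passed the unadjusted threshold in 4, Pcna in 3 and Rrm2 in 1.

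The histone chaperones and importers, which carry new histones to chromatin, had log2 fold changes below 0 for 16 of 20 and above 0 for 4 (48.3% of all genes were above 0). Of the 20, 4 were lower and 0 higher at an unadjusted p under 0.05 (4.02 and 2.74% of all genes), with a median log2 fold change of −0.22 and sums of 3138, 2608 and 2775 CPM in WT and 2248, 2518 and 2462 CPM in eIF5A-KO. Among these 4 were Chaf1a, a subunit of the replication-coupled assembly factor CAF-1, with a log2 fold change of −0.66, Asf1b, a carrier of H3 and H4, with −0.66, and Hjurp, the chaperone of the centromere variant CENP-A, with −0.90. Asf1b lost this threshold without WT replicate 1, eIF5A-KO replicate 1 or eIF5A-KO replicate 3 (unadjusted p = 0.0814, 0.0723 and 0.0918), and Chaf1a lost it without eIF5A-KO replicate 3 (0.0569). The 3 most abundant, Nap1l1, Rbbp7 and Ssrp1, were at −0.03, −0.28 and −0.21.

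Of 18 factors of histone gene transcription and histone mRNA processing or decay, 0 were higher (2.74% of all genes) and 0 lower (4.02%) at an unadjusted p under 0.05. Slbp was at 75.3, 53.1 and 53.7 CPM in WT and at 41.4, 51.7 and 46.5 in eIF5A-KO. The eIF5A-KO libraries lay below the WT libraries, by a narrow margin, and the log2 fold change of −0.38 had an interval of −0.82 to 0.06 (unadjusted p = 0.0821, edgeR adjusted p = 0.809). For Npat, the coactivator of histone gene transcription, it was −0.21, for Casp8ap2 (FLASH), which acts in histone pre-mRNA processing, −0.35, and for Eri1, an exonuclease that acts on histone mRNA ends, −0.46, with unadjusted p-values of 0.298, 0.166 and 0.0556. Casp8ap2 passed this threshold without eIF5A-KO replicate 3 (0.0334). Eri1 passed it in 3 of 16 alternative fits, among them the fit without WT replicate 2 (0.0231). Of the 18, 12 were below 0 and 6 above. Sympk, the scaffold of the cleavage complex, was at 136, 187 and 176 CPM in WT and at 230, 207 and 192 in eIF5A-KO, a log2 fold change of 0.33 (unadjusted p = 0.0991) without overlap. Cpsf3, the endonuclease of that complex, had a value of 0.15, also without overlap. These were the 2 factors whose eIF5A-KO libraries all lay above WT (5.68% of all genes), and for 4, Slbp, Eri1, Cstf2 and Lsm11, they all lay below (6.83%). Ncbp1, Srrt and Upf1 were at −0.19, −0.01 and 0.12.

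The replication-independent variants, as polyadenylated relatives of the same proteins, had no member that was higher beyond the unadjusted threshold with all libraries in the fit. Of 11, 3 were lower (4.02% of all genes) and 0 higher (2.74%) at an unadjusted p under 0.05: Cenpa (log2 fold change −0.92), H2afz (−0.72) and H3f3a (−0.52). H2afz fell short of this threshold without WT replicate 1, eIF5A-KO replicate 1 or eIF5A-KO replicate 3 (unadjusted p = 0.103, 0.0837 and 0.104), and its value was −0.34 without the first. H3f3a fell short of it without WT replicate 1 or any one eIF5A-KO library (0.0743, 0.0816, 0.0534 and 0.0711), with a value of −0.31 without WT replicate 1. H3f3b, which encodes the same H3.3 protein as H3f3a, was at 0.10. H1f0, the linker histone of resting cells, was the most abundant linker histone per length, at 145 ± 24.8 FPKM in WT and 187 ± 31.4 in eIF5A-KO (SD, n = 3), beside 41.9 ± 9.73 and 104 ± 44.5 FPKM for Hist1h1c. In CPM, H1f0 stood at 362, 265 and 278 in WT and at 463, 346 and 352 in eIF5A-KO with overlap, and its log2 fold change of 0.36 had an interval of −0.10 to 0.81 (unadjusted p = 0.109). Without WT replicate 1 it was 0.52, with an unadjusted p of 0.0192.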

How the data were processed

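RNA-seq counts and FPKM values of 6 libraries (3 WT, 3 eIF5A-KO) were used. The authors prepared libraries from total RNA with a kit that does not mark strand, mapped reads with HISAT to mm10 and deposited raw counts per gene. The deposited FPKM values were made by the authors from the same libraries. The annotation, the rule for reads with several matches and whether polyadenylated RNA was selected are not given in the sources used here; coordinates of all 67 genes equal those of GENCODE M21. No whole genome sequence was searched, only annotated transcripts and promoter windows.

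Counts were fitted on the whole table with edgeR 4.0.16 (R 4.3.3; quasi-likelihood test, TMM factors, filterByExpr, prior count 0.125), which tested 14679 genes, and p-values were adjusted by Benjamini-Hochberg over all of them. The replicates' biological coefficient of variation was 0.239. SEs of the tested histone genes ranged from 0.210 to 0.668 (log2). Alternatives used limma 3.58.1, DESeq2 1.42.0, other scalings and filters, log2(FPKM + 1 or 0.1), a replicate block and the omission of each library. Levels between genes were compared as FPKM. Sums and lists were described without a test. Zero counts were given the level of 3 counts as a limit, which covers counting error only. The scripts were tested on simulated data. Motifs and shared windows were searched in GENCODE M21 transcripts and RefSeq promoters with Python 3.11.15.

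Named were members with an adjusted p under 0.05, the 3 tested members of each class with the highest FPKM, the 5 with the smallest p, the 3 with the largest fold change, and, of each list, the 3 with the highest FPKM and the 3 with the smallest p, besides Eif5a, Slbp, Npat and Casp8ap2. Other members were named after their values were seen. The members and lists were chosen with earlier results of these data known.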

Additional observations from a re-analysis of the deposited data

How the results depend on the processing

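Hist1h1c and Hist1h2bc kept a higher level at an unadjusted p under 0.05 in all 16 alternatives, and Hist1h1d in the 15 in which it was tested. Histone genes passing an adjusted p of 0.05 (0 as reported) numbered 3 without a filter (Hist1h1c, Hist1h1d and Hist1h2bc; 0.924% of all genes), 2 with DESeq2 (Hist1h1c and Hist1h1d; 0.600%) and 0 to 1 without single libraries (Hist1h1d without WT replicate 1; 0.372%). Replicate numbers do not pair these libraries (correlations of same-numbered libraries 0.103, −0.221 and 0.113), and with the replicate block 1 histone gene passed (Hist1h1c; 0.163%). Adjusted p-values of Hist1h1c ranged from 1.59e-06 to 0.990 over the alternatives.

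Genes higher at an unadjusted p under 0.05 (5 as reported) numbered 3 with at least 10 counts required in every library, which left 9 histone genes, and 3 to 7 without single libraries, the lowest without eIF5A-KO replicate 1. With the fold criterion (4 as reported) the numbers were 2 with 10 counts required, 1 on log2(FPKM + 1), which understates low genes, and 1 to 6 without single libraries, 1 without eIF5A-KO replicate 1. The median log2 fold change (0.50) was 0.23 on log2(FPKM + 1) and 0.36 to 0.91 without single libraries, 0.91 without WT replicate 1. The log2 ratio of summed CPM (1.04) was 0.59 without Hist1h1c, 0.42 without Hist1h2bc too (an alternative chosen after seeing the data), and 0.71 to 1.24 without single libraries. No alternative gave a histone gene lower at an unadjusted p under 0.05.

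Some log2 fold changes near 0 turned sign without single libraries: Hist1h2bj (−0.088 to 0.24), Hist3h2a (−0.26 to 0.19), Hist1h4i (−0.11 to 0.67), Eif5a (−0.13 to 0.23), Nap1l1 (−0.16 to 0.089), Ncbp1 (−0.32 to 0.012), Upf1 (−0.11 to 0.26) and Srrt (−0.067 to 0.067; 0.0011 without a filter). The cause of these changes was not tested. Low counts limit the precision for all but the few most abundant genes.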
